A study of Mus musculus with 6 samples.

Results

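Transcripts of 9 genes that build and anchor epithelial cell junctions were examined in mouse colon: the tight junction scaffold genes Tjp1, Tjp3 and Cgn, the tight junction membrane protein genes Ocln, Marveld2 and F11r, and the epithelial adhesion genes Cdh1, Cdh17 and Epcam. They were chosen by name and by role (junction scaffolds other than claudins, tricellulin and epithelial adhesion molecules), not by a rule on their values. Earlier results of these data were known when they were chosen. All 9 were among the 24517 genes listed in the count files and among the 16347 that passed the filter on low counts. The study sequenced colon RNA from 3 NSD2fl/fl and 3 NSD2∆IE libraries. In NSD2fl/fl mice Nsd2 is flanked by loxP sites and no Cre is named, and in NSD2∆IE mice the same alleles are combined with Villin-Cre, which is active in the intestinal epithelium, so that Nsd2 of muscle, nerve, immune and connective tissue cells in the same piece of colon is left in place. NSD2 is a histone methyltransferase that places the H3K36me2 mark. Both groups were on a C57BL/6J background and both were fed a high-fat cholesterol diet (HFCD), for 16 weeks by the labels, while the study's methods give another length. There was no group on normal diet here, so each comparison is between genotypes on HFCD. Age was not given on the labels, while the study's methods give an age for the start of feeding.

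Tight junctions seal the space between epithelial cells near the lumen. Their membrane proteins (claudins, occludin, tricellulin and JAM-A) are held by cytoplasmic scaffolds of the zonula occludens (ZO) family, which bind one another and actin, and cingulin links this plaque to the actomyosin ring. Below it, E-cadherin makes the calcium-dependent adhesion of the adherens junction, whereas LI-cadherin and EpCAM lie along the lateral membranes of intestinal cells. In the colon these proteins together limit the passage of bacterial products from the lumen.

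The 250 bases before the annotated start are shown for 4 members, since they carry different sets of letters recognised by known regulators of epithelial genes. The promoter sequences used here, from RefSeq (GRCm38.p6), covered 10 starts of 7 of the 9 members, and those of Cdh1 and Cdh17 were not analysed here. Capitals mark matches, on either strand, to CAGGTG (reverse CACCTG, the E-box read by SNAI and ZEB repressors), AACCNGTT (reverse AACNGGTT, grainyhead-like factors), CCGGAAG (reverse CTTCCGG, ETS factors such as ELF3), GGGNGTGG (reverse CCACNCCC, KLF factors), CAAAGTNCA (reverse TGNACTTTG, HNF4), TTTATG (reverse CATAAA, CDX) and GGGCGG (reverse CCGCCC, the GC box). The Tjp3 window is chr10:81291582-81291831 on the minus strand, the Epcam window chr17:87635729-87635978 on the plus strand, the F11r window chr1:171437311-171437560 on the plus strand and the Cgn window chr3:94786483-94786732 on the minus strand. Each is printed 5′ to 3′ along its gene.
Tjp3: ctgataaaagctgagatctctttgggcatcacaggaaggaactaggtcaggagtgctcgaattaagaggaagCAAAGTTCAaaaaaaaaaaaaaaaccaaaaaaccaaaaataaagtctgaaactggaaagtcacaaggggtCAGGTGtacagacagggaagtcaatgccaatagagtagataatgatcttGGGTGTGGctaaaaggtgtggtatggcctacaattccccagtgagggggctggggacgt
Epcam: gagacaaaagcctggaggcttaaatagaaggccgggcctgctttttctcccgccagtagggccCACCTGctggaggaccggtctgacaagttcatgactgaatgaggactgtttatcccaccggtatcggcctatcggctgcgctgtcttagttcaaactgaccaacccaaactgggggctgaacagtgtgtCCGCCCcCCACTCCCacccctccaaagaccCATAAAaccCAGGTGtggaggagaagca
F11r: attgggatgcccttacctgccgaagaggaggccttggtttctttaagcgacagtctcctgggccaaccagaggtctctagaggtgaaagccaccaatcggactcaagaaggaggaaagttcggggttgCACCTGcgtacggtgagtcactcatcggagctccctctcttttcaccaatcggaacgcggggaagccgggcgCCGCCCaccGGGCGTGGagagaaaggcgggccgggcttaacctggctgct
Cgn: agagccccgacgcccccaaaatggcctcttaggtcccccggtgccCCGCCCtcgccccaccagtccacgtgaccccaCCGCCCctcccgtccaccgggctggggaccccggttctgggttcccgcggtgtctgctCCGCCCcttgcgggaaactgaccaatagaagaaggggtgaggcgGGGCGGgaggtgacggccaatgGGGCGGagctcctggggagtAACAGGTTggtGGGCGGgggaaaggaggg

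The E-box was found in 5 of the 10 windows, those of Tjp3 (both starts), Epcam, F11r and the second start of Ocln, and in 17.2% of the 32851 windows of all genes. In Epcam it lay 19 and 187 bases before the start, in F11r 122 bases and in the Tjp3 window above 108 bases. The KLF letters were in 6 of 10 windows (15.9% of all) and the GC box in 8 of 10 (32.7% of all), with 6 GC boxes in the Cgn window alone. Single windows held the grainyhead-like letters (Cgn, 29 bases before the start, 1.79% of all), the HNF4 letters (Tjp3, 178 bases, 1.19% of all) and the CDX letters (Epcam, 28 bases, 10.8% of all). The ETS letters were in none of the 10, against 6.91% of all windows. No matches shared bases in these windows. GC content ran from 43.2% in the Tjp3 window above to 70.4% in the Cgn window, with a median of 52.4% over all windows. The paired starts of Ocln, and those of Marveld2, have windows that overlap each other, so these are not independent counts. A match is a run of letters and was not tested as a binding site.

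Each library held between 38041832 and 38604680 counts, and the members between 1358 (Marveld2, NSD2fl/fl library 3) and 66325 (Epcam, NSD2fl/fl library 2), so counting error was small beside the spread between libraries. Nsd2 had 1840, 2091 and 2455 counts in NSD2fl/fl and 972, 914 and 1139 in NSD2∆IE, a log2 fold change of -1.23 ± 0.159 (SE) with no overlap between groups and an edgeR adjusted p of 0.302. Xist had 0 to 4 counts in the NSD2fl/fl libraries and 21217 to 24234 in NSD2∆IE, and 4 Y-linked genes had 868 to 2205 counts in NSD2fl/fl and 0 or 1 in NSD2∆IE, although the methods name male littermates, so genotype and this sex-linked pattern cannot be told apart. The libraries also differed in tissue makeup. The 10 smooth muscle markers (led by Acta2, Myh11 and Actg2) summed to 1672 to 4441 CPM (the count of a gene relative to the total of its library) in NSD2fl/fl and 5535 to 11890 in NSD2∆IE, all 10 fitted above 0 with a median log2 fold change of 1.20, and the 11 enteric nervous system markers (Elavl4, Tubb3 and Uchl1 first) to 66.4 to 126 and 159 to 201 CPM, median 0.95. The 13 epithelial markers (Krt8, Krt18 and Krt19 first) were present in every library, summed to 13630 to 23200 and 13310 to 15130 CPM, and were all fitted below 0, with a median of -0.31. NSD2fl/fl library 2 stood apart with the highest summed epithelial and the lowest summed muscle CPM. Within NSD2fl/fl it was highest for every epithelial marker except Ap1m2 and Rab25. These were lowest there, at 137 and 150 CPM, against 138 and 158 in library 1 and 142 and 166 in library 3. The part of this makeup in the members' values was not tested, and in whole tissue fewer epithelial cells and less RNA per cell cannot be told apart.

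The adhesion genes were expressed far above the scaffolds. On the deposited FPKM scale, which divides by gene length, Epcam was highest of the 9, at 703, 840 and 662 in NSD2fl/fl and 693, 670 and 646 in NSD2∆IE, and ranked above every other member in each library. Cdh17 (194 to 372 FPKM over the 6 libraries) and Cdh1 (187 to 283) followed, and their order differed from library to library, with Cdh17 higher in 3 of 6. Below them came F11r (75.1 to 96.2) and Tjp3 (55.1 to 90.1), which overlapped in their ranges in NSD2fl/fl although F11r was above Tjp3 within each library. Ocln (22.1 to 33.3) and Cgn (23.2 to 30.8) did not differ beyond their spread, and Tjp1 (13.4 to 19.4) and Marveld2 (10.6 to 14.8) were lowest. Even so, Marveld2 stood at the 72.0 percentile of all genes tested by mean FPKM and Epcam at the 99.4 percentile. The order of the 9 was the same in both groups apart from a swap of Ocln and Cgn.

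**Figure D1:**
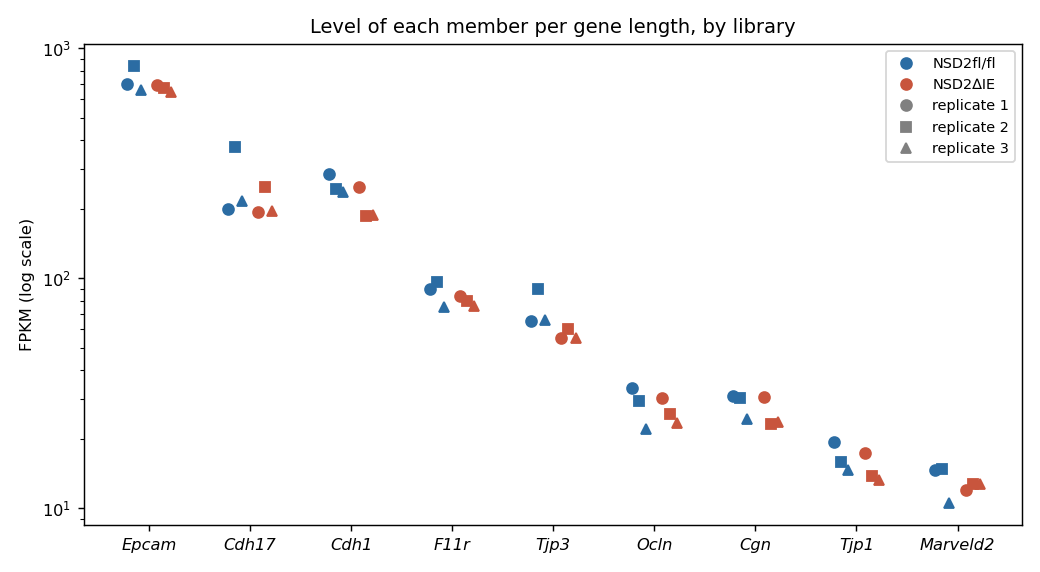
FPKM of each member (log scale) in the 3 NSD2fl/fl libraries (blue) and the 3 NSD2∆IE libraries (red), with replicate number by symbol. Epcam lies highest at 646 to 840 FPKM and Marveld2 lowest at 10.6 to 14.8, and Cdh17 and Cdh1 overlap.

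Whether removal of epithelial Nsd2 changed junction gene transcripts was asked by comparing the groups with edgeR's quasi-likelihood test, with Benjamini-Hochberg adjustment over all 16347 genes. All 9 members had a lower fitted level in NSD2∆IE, with log2 fold changes from -0.51 (Tjp3) to -0.21 (Ocln) and a median of -0.27, beside a median of -0.04 over all genes tested, of which 56.3% were fitted below 0. None passed an adjusted p under 0.05 in edgeR, where 0.0306% of all genes tested did, 5 genes that are all sex-linked. None passed by DESeq2 either (2.78% of all genes, 455 in number) or by limma-voom (0.0306%). In edgeR 1 of the 9 members, Tjp3, had an unadjusted p under 0.05, beside 1816 of the 16347 genes tested. At the study's threshold of an unadjusted p under 0.05 and a fold cut-off (0.322 on the log2 scale), Tjp3 was the 1 member lower in NSD2∆IE, 1 of 9 beside 2.21% of all genes, and 0 members were higher, beside 8.05%. In Tjp3, Cdh1 and Epcam the 3 NSD2∆IE libraries all lay below the 3 NSD2fl/fl libraries, 3 of 9 members beside 7.28% of all genes, and in none did they all lie above (11.4% of all genes). Scaled by library totals instead of by TMM factors, the median of all genes moved from -0.04 to 0.09 and the members stayed below 0.

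**Figure D2:**
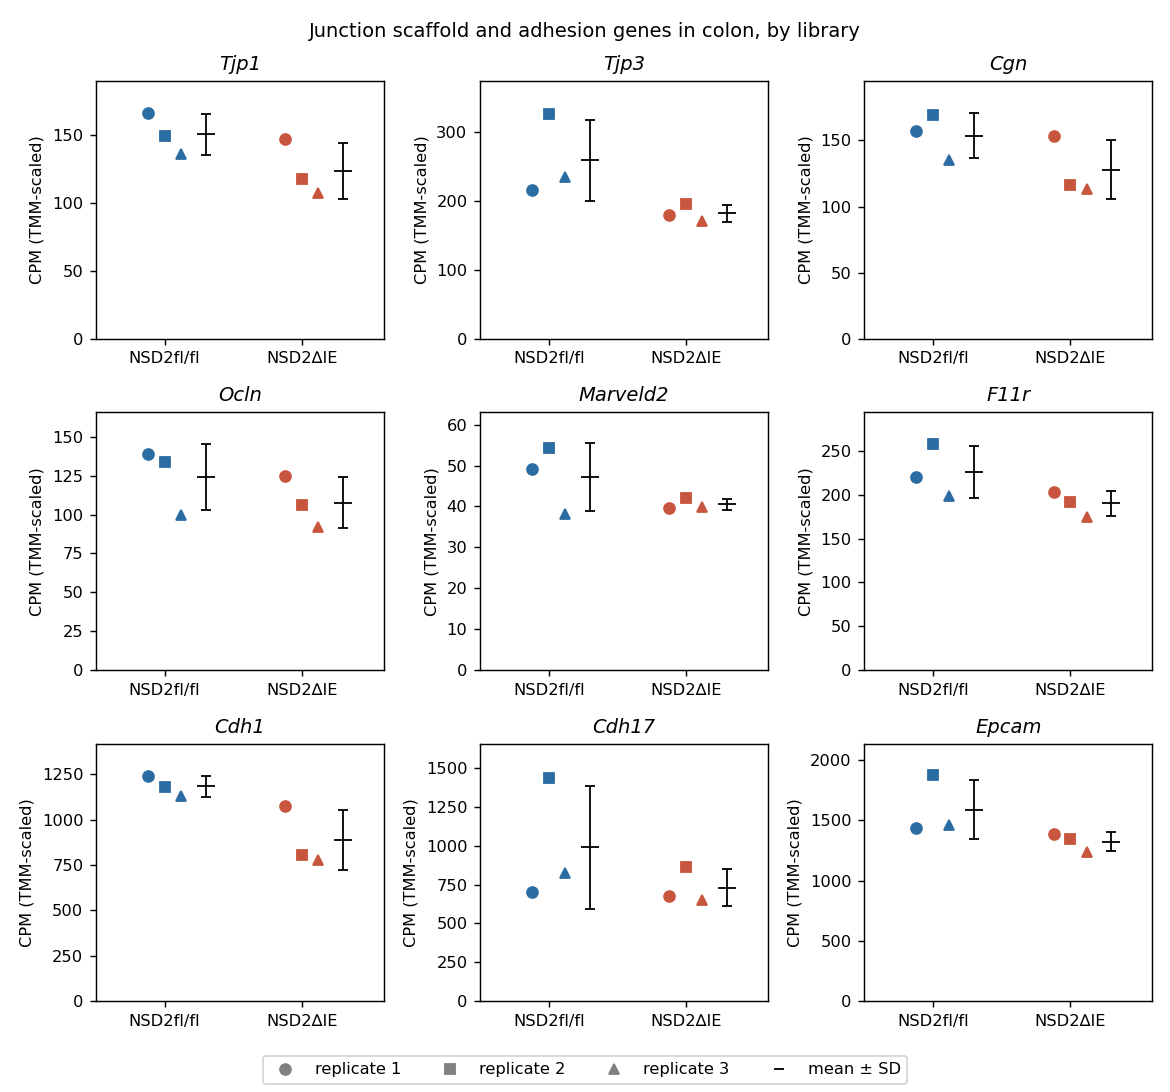
TMM-scaled CPM (y axis from 0) of the 9 members in each NSD2fl/fl (blue) and NSD2∆IE (red) library, with the group mean and SD (n = 3) as a black bar. Tjp3, Cdh1 and Epcam show no overlap between groups, and NSD2∆IE replicate 3 is the lowest library for 8 of the 9 members.

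Among the scaffolds, Tjp3 had the largest difference. It encodes ZO-3, a ZO family member of epithelial cells (chr10:81273207-81291581, minus strand, GRCm38), and was measured at 216, 327 and 236 CPM in NSD2fl/fl libraries 1 to 3 and at 180, 196 and 171 CPM in NSD2∆IE. Every NSD2∆IE library lay below every NSD2fl/fl library, and NSD2fl/fl library 2 stood well above the other five. The means were 260 ± 58.9 and 182 ± 12.9 CPM (SD, n = 3), a log2 fold change of -0.51 ± 0.18 (SE; edgeR adjusted p = 0.379, unadjusted p under 0.05). Without NSD2fl/fl library 2 it was -0.31 and no longer had an unadjusted p under 0.05, nor did it without NSD2∆IE library 1 (-0.49) or library 3 (-0.47). Of the 3714 exon bases of Tjp3, 40 are shared with Apba3 on the opposite strand, and the strand setting of the counting was not given in the sources used here.

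Tjp1, which encodes ZO-1, the scaffold found at both tight and adherens junctions (chr7:65296165-65527781, minus strand), was measured at 166, 149 and 136 CPM in NSD2fl/fl and at 147, 117 and 107 in NSD2∆IE. The groups overlapped, since NSD2∆IE library 1 lay above NSD2fl/fl library 3. The log2 fold change was -0.28 ± 0.153 (edgeR adjusted p = 0.558). Cgn, which encodes cingulin (chr3:94760069-94786492, minus strand), was measured at 157, 169 and 135 CPM and at 153, 117 and 113 CPM in the same order of groups. Here too NSD2∆IE library 1 reached the NSD2fl/fl range while the other two lay below it, and the log2 fold change was -0.27 ± 0.16 (edgeR adjusted p = 0.593). With NSD2∆IE library 1 left out, Tjp1 was at -0.42 and Cgn at -0.41, each with an unadjusted p under 0.05, and with NSD2∆IE library 3 left out both were at -0.19, with an unadjusted p above 0.05.

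The membrane proteins of the tight junction showed the smallest differences. Ocln, the gene of occludin, was measured at 139, 134 and 99.97 CPM in NSD2fl/fl and at 124.6, 106 and 92.0 in NSD2∆IE. Its groups overlapped, with NSD2fl/fl library 3 below NSD2∆IE libraries 1 and 2, and the log2 fold change was -0.21 ± 0.174 (edgeR adjusted p = 0.698). It ran from -0.34 without NSD2fl/fl library 3 and -0.32 without NSD2∆IE library 1 to -0.12 without NSD2fl/fl library 1 and -0.105 without NSD2∆IE library 3. Marveld2 encodes tricellulin, the protein that closes the corners where 3 cells meet, and was measured at 49.2, 54.2 and 38.1 CPM in NSD2fl/fl and at 39.7, 42.0 and 39.9 in NSD2∆IE. The lowest Marveld2 level of all was in an NSD2fl/fl library, the 3 NSD2∆IE libraries lay within a narrow range (SD 1.28 CPM, against 8.22 in NSD2fl/fl), and the log2 fold change was -0.22 ± 0.145 (edgeR adjusted p = 0.626). With NSD2fl/fl library 3 left out it was -0.35, with an unadjusted p under 0.05, and with NSD2fl/fl library 2 left out it was -0.11. Ocln (chr13:100496507-100552718) and Marveld2 (chr13:100595957-100616971) are neighbours on the minus strand, 43.2 kb apart, and both encode proteins with a MARVEL domain.

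F11r, the gene of the immunoglobulin-like adhesion molecule JAM-A (chr1:171437535-171464603, plus strand), was measured at 221, 259 and 199 CPM in NSD2fl/fl and at 203, 192 and 175 in NSD2∆IE. Only NSD2∆IE library 1 lay within the NSD2fl/fl range. The log2 fold change was -0.25 ± 0.139 (edgeR adjusted p = 0.566), and without NSD2fl/fl library 2 it was -0.14.

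Of the adhesion genes, Cdh1 (E-cadherin, chr8:106603351-106670246, plus strand) was measured at 1241, 1178 and 1128 CPM in NSD2fl/fl and at 1075, 807 and 776 CPM in NSD2∆IE. The NSD2fl/fl libraries were close together (1182 ± 56.5) and NSD2∆IE libraries 2 and 3 lay far below them, with library 1 in between (886 ± 164). The log2 fold change was -0.42 ± 0.184 (edgeR adjusted p = 0.464), and DESeq2 gave -0.41 with an adjusted p of 0.217. Its unadjusted p was under 0.05 in 4 of the 17 alternatives, namely DESeq2, limma-voom, the replicate number as a block (-0.43) and without NSD2∆IE library 1 (-0.57).

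Cdh17, the gene of LI-cadherin, an intestinal cadherin without the catenin-binding tail of E-cadherin (chr4:11758147-11817895, plus strand), was measured at 704, 1438 and 826 CPM in NSD2fl/fl and at 675, 865 and 651 in NSD2∆IE. Library 2 was the highest of its group in both genotypes, most of all in NSD2fl/fl, and the groups overlapped. The log2 fold change of -0.44 ± 0.297 (edgeR adjusted p = 0.634) had the largest error of the 9 and shrank to -0.07 without NSD2fl/fl library 2. Epcam, whose product stabilises claudins at the lateral membrane (chr17:87635979-87651129, plus strand), was measured at 1431, 1874 and 1459 CPM in NSD2fl/fl and at 1388, 1344 and 1233 in NSD2∆IE. Its groups did not overlap, but NSD2∆IE library 1 came close to the lowest NSD2fl/fl library, and the log2 fold change was -0.26 ± 0.183 (edgeR adjusted p = 0.639), or -0.13 without NSD2fl/fl library 2.

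**Figure D3:**
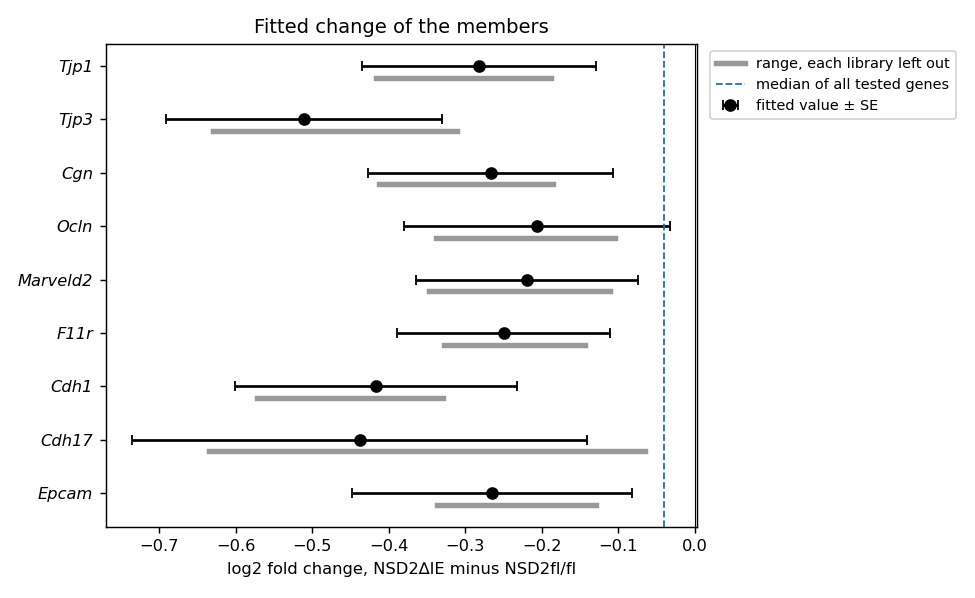
Fitted log2 fold change (NSD2∆IE minus NSD2fl/fl) of each member with its SE (black), and the range when each of the 6 libraries was left out in turn (grey). All values lie below 0 and left of the median of all genes tested (-0.04, dashed), and the Cdh17 range runs from -0.64 to -0.07.

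To place the members beside other epithelial transcripts of the same library, the mean log2 CPM of the 13 epithelial markers was subtracted from each member's log2 CPM. On this relative scale Ocln and Marveld2 differed between groups by 0.004 and 0.002, and F11r, Epcam, Cgn and Tjp1 by -0.04, -0.05, -0.07 and -0.08 (exact permutation p from 0.7 to 1, two-sided). Cdh1 was at -0.23 (exact permutation p = 0.7) and Cdh17 at -0.17 (exact permutation p = 0.3). Of the 9 members Tjp3 alone did not overlap between groups, and the share of all genes that do so on this scale was not computed. Its relative level was -1.39, -1.58 and -1.53 in NSD2fl/fl and -1.78, -1.77 and -1.81 in NSD2∆IE, a difference of -0.28 (exact permutation p = 0.1), where 0.1 is the smallest p that 3 against 3 libraries can give. Leaving out each library in turn kept this difference between -0.32 and -0.23, and unlike the CPM difference it did not shrink without NSD2fl/fl library 2. The subtracted epithelial mean was itself highest in that library, at 9.935 log2 CPM against 9.147 to 9.414 in the others. The stability of the relative difference therefore depends on this reference. Adjusted over the 9 comparisons no p could pass 0.05.

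**Figure D4:**
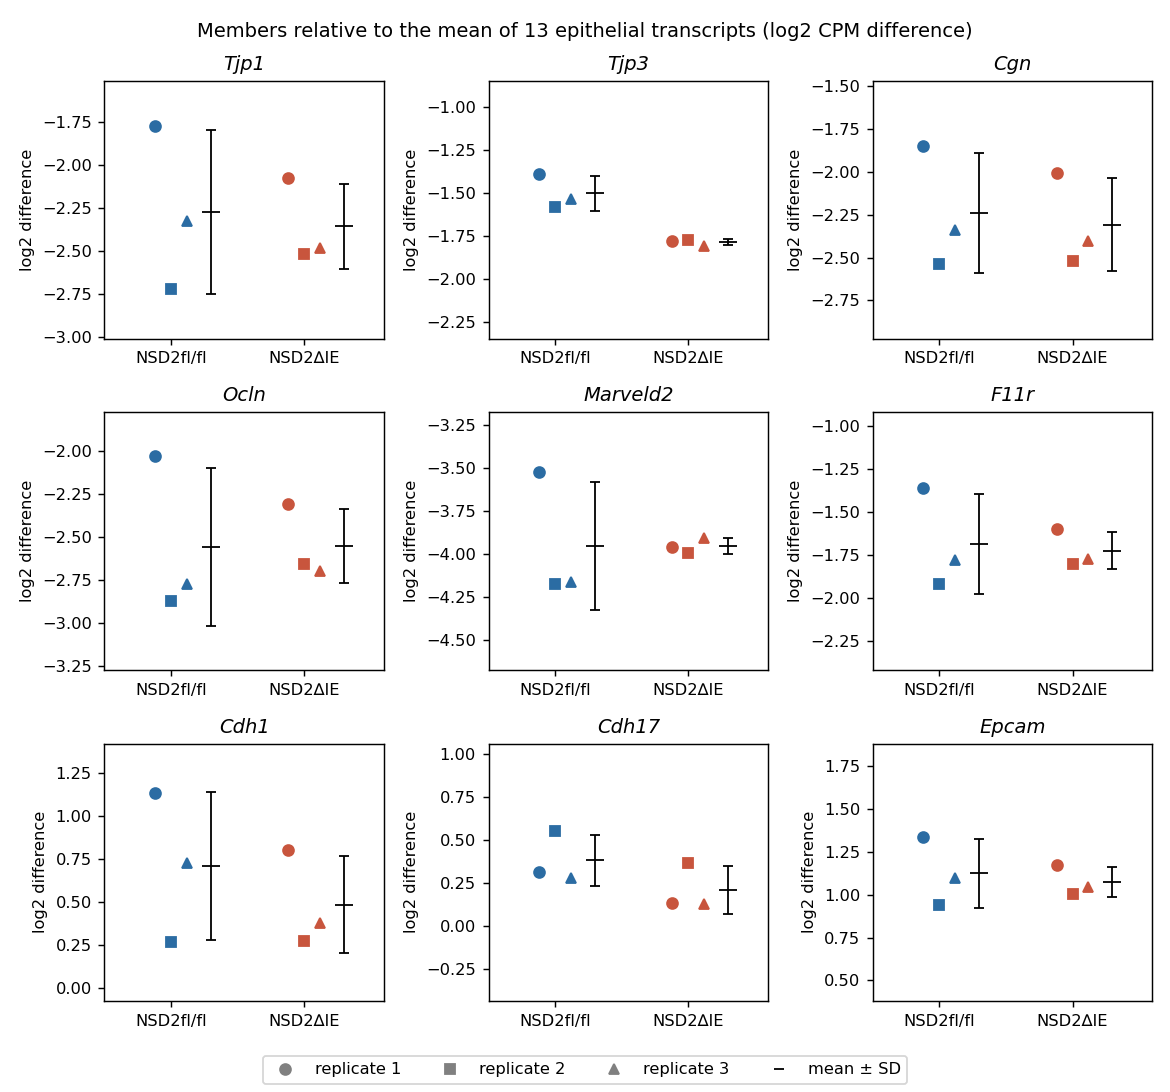
Log2 CPM of each member minus the mean log2 CPM of 13 epithelial markers of the same library, with the group mean and SD (n = 3); every panel spans 1.5 log2 units. Only in the Tjp3 panel do the NSD2fl/fl (blue) and NSD2∆IE (red) libraries not overlap, at -1.58 to -1.39 against -1.81 to -1.77.

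The relative values also varied between libraries of the same group. NSD2fl/fl library 2, which had the highest summed epithelial RNA, had the lowest relative level of 7 of the 9 members, such as -2.72 for Tjp1, whereas NSD2fl/fl library 1 had the highest of 8, such as -1.77 for Tjp1. Thus for Tjp1 the NSD2fl/fl libraries spanned more of this scale (SD 0.476) than the NSD2∆IE libraries (SD 0.246). The epithelial mean was highest in NSD2fl/fl library 2, although its markers Ap1m2 and Rab25 were lowest there within NSD2fl/fl. The low relative levels in that library therefore depend on the reference.

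Ratios of FPKM between related members, which do not depend on library scaling, showed no difference that the design could resolve. ZO-3 transcript was 3.37, 5.67 and 4.48 times ZO-1 transcript in NSD2fl/fl and 3.17, 4.32 and 4.13 times in NSD2∆IE, a log2 difference of -0.20 (exact permutation p = 0.4). Tricellulin to occludin was 0.442, 0.506 and 0.477 against 0.398, 0.493 and 0.542, a log2 difference of -0.002 (exact permutation p = 1). The ratio of the 2 cadherins, Cdh17 to Cdh1, ran from 0.705 to 1.52 in NSD2fl/fl and from 0.78 to 1.33 in NSD2∆IE, and was lowest in library 1 and highest in library 2 of both groups (log2 difference 0.05, exact permutation p = 0.9). Epcam was 2.48, 3.42 and 2.78 times Cdh1 in NSD2fl/fl and 2.78, 3.58 and 3.42 times in NSD2∆IE (log2 difference 0.18, exact permutation p = 0.5). The smallest exact permutation p that 3 against 3 libraries can give is 0.1, so none of the 4 ratios could pass 0.05.

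The size of the differences depended on which libraries were set side by side. The first principal component of log2 CPM, computed without the members and other junction genes, took 51.1% of the variance and parted NSD2fl/fl libraries 1 and 3 and NSD2∆IE library 1 from NSD2fl/fl library 2 and NSD2∆IE libraries 2 and 3, a split that followed the distal colon gene Hoxb13 (365, 0.706 and 340.5 CPM in NSD2fl/fl, and 310.0, 4.97 and 26.2 in NSD2∆IE). On the side with high Hoxb13, Cgn and Ocln were slightly higher in NSD2∆IE (log2 differences of 0.07 and 0.06), 6 other members lay between -0.18 and -0.04, and Tjp3 was at -0.33. On the other side, where NSD2fl/fl is 1 library, all 9 were lower in NSD2∆IE, from -0.405 (Marveld2) to -0.83 (Tjp3) and -0.92 (Cdh17). Tjp3 was thus lower on both sides, as were all other members except Cgn and Ocln. Nsd2 itself differed by about the same amount on either side, -1.25 and -1.23. Each side has a group of 1 library, so neither value has a test. With this split as a covariate in edgeR, Tjp3 was at -0.58 (adjusted p = 0.314) and Cdh17 at -0.55 (adjusted p = 0.372), both with an unadjusted p under 0.05.

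Across the 6 libraries all pairs of members were positively correlated, to different degrees. Tjp1, Cgn, Ocln and Cdh1 had Pearson r between 0.762 and 0.955 with one another, and Tjp3, Epcam, F11r and Cdh17 between 0.782 and 0.962, whereas Tjp1 with Cdh17 was at 0.222 and Cdh1 with Cdh17 at 0.312. F11r was also at 0.759 (Tjp1) to 0.889 (Cgn) with the first 4 genes, and Cgn with Epcam at 0.778, so the members do not part into separate sets. Marveld2 was at 0.864 with F11r and 0.763 with Ocln. These are descriptions over libraries that also share tissue makeup, genotype and scaling. The genes most like the mean of the 9 members (z-scored log2 CPM) were Trim56 (r = 0.993), Brap, Klf3, Zc3h3 and Akap13 (r = 0.987), over 6 libraries. For single members the most similar genes were Etv3 for Tjp1, Pef1 for Tjp3, Shroom3 for Cgn, Rasgef1b for Ocln, Cpeb2 for Marveld2, Zc3h3 for F11r, Anks3 for Cdh1, Grb2 for Cdh17 and Plekha7 for Epcam, with r from 0.979 (Shroom3) to 0.998 (Pef1). With so few libraries many of the genes tested reach a high r with any pattern.

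Beyond the members, 54 other genes of the junctions were listed, of which 53 were found in the files and 52 were tested. Of these, 36 were fitted below 0 and 16 above, with a median of -0.17, beside 56.3% below 0 and a median of -0.04 over all genes. At the same unadjusted p and fold threshold, 2 of 52 were lower, beside 2.21% of all genes, and 6 were higher, beside 8.05%. None passed an adjusted p under 0.05 in edgeR, while DESeq2, which passed 2.78% of all genes, passed Mpdz, Jam2 and Marveld1 among those named here. By list, 6 of 7 desmosome genes were fitted below 0 (median -0.37) and 11 of 12 adherens junction genes (median -0.18), the lowest of the latter being Ctnnd1, p120 catenin, which binds the tail of E-cadherin, at -0.36, together with Plekha7 at -0.36, neither with an unadjusted p under 0.05. The matriptase system, which cleaves EpCAM, and the EpCAM relatives were at a median of -0.21 over 4 genes tested. The other plaque genes were at -0.07 and the other membrane protein genes at -0.13.

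The closest relatives of the members divided in direction. Marveld3, the third MARVEL protein of the tight junction, was lower in NSD2∆IE (90.0, 93.6 and 83.6 CPM in NSD2fl/fl and 75.7, 57.8 and 56.2 in NSD2∆IE), with no overlap and a log2 fold change of -0.49 ± 0.142 (edgeR adjusted p = 0.312). Jam2, by contrast, a relative of F11r known from endothelium and smooth muscle, was higher, at 23.0, 14.1 and 16.7 CPM against 29.7, 35.0 and 34.8, a log2 fold change of 0.89 ± 0.197 (edgeR adjusted p = 0.302, DESeq2 adjusted p = 0.00975). Jam3 was at 0.71 ± 0.216 (edgeR adjusted p = 0.326) and Marveld1 at 0.76 ± 0.189 (edgeR adjusted p = 0.302, DESeq2 adjusted p = 0.0255), and in both every NSD2∆IE library lay above every NSD2fl/fl library. The multi-PDZ scaffold gene Mpdz was measured at 11.7, 9.92 and 9.66 CPM and at 17.2, 19.3 and 21.4, a log2 fold change of 0.89 ± 0.151 (edgeR adjusted p = 0.302, DESeq2 adjusted p = 0.000381), and the scaffold gene Magi2 was at 0.98 ± 0.325 (edgeR adjusted p = 0.36) at levels under 4 CPM, with an unadjusted p above 0.05 without NSD2∆IE library 2. Smooth muscle and nerve markers were higher in the same libraries, with the values given above, and their part in these differences was not tested.

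**Figure D5:**
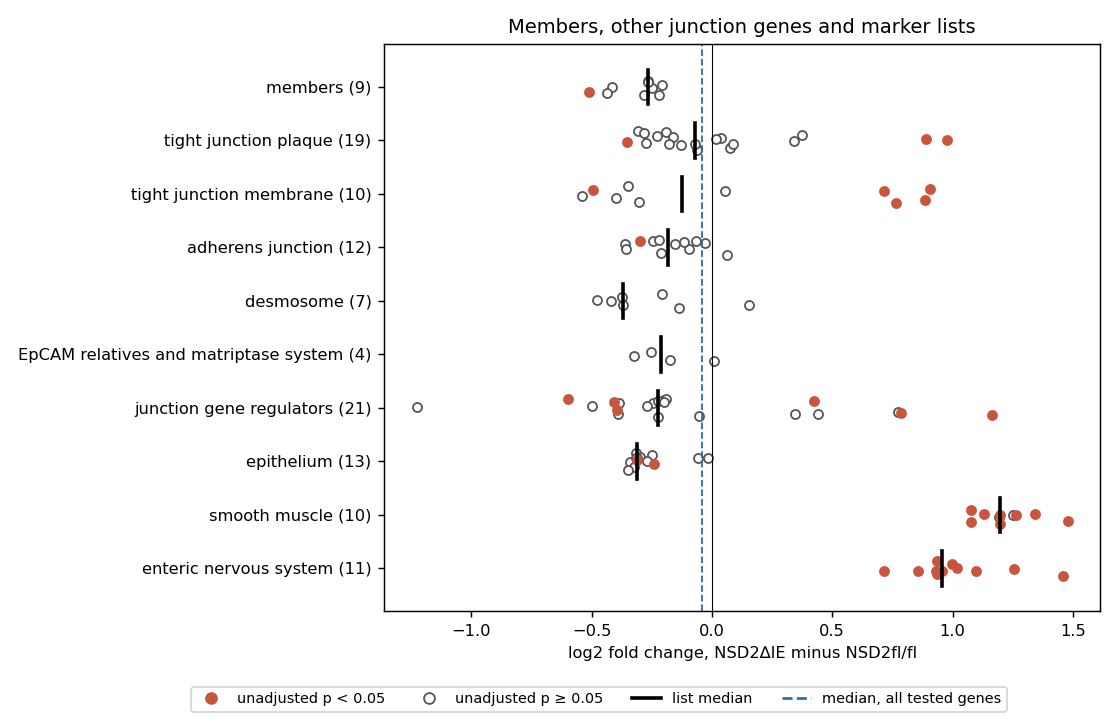
Log2 fold change (NSD2∆IE minus NSD2fl/fl) of every tested gene in the members, the other junction lists, the regulators and 3 marker lists, with the number of genes in brackets, the list median as a bar and the median of all genes (-0.04) dashed. The members (median -0.27) and epithelial markers (median -0.31) lie together, while smooth muscle and nerve markers lie near 1.

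Regulators of junction genes were read from 21 transcription and splicing factors, all tested, of which 15 were fitted below 0, beside 56.3% of all genes. At the unadjusted p and fold threshold above, 3 were lower (Elf3, Klf4 and the epithelial splicing factor gene Esrp2), beside 2.21% of all genes, and 3 higher (Twist1, Zeb1 and Zeb2), beside 8.05%. None passed an adjusted p under 0.05 in edgeR. Elf3, an epithelial ETS factor, was measured at 521, 577 and 456 CPM in NSD2fl/fl and at 331, 332 and 364 in NSD2∆IE, with no overlap and a log2 fold change of -0.60 ± 0.142 (edgeR adjusted p = 0.302, DESeq2 adjusted p = 0.00694). Zeb1 and Zeb2 encode repressors known to read the E-box letters, which 17.2% of all windows hold. Their binding in the windows printed above was not tested. Zeb1 was measured at 18.6, 8.76 and 14.97 against 21.1, 24.5 and 27.4 CPM, and Zeb2 at 27.2, 22.9 and 23.4 against 28.3, 35.8 and 34.4 CPM. Their log2 fold changes were 0.79 ± 0.276 (edgeR adjusted p = 0.379) and 0.42 ± 0.138 (edgeR adjusted p = 0.355), and that of Twist1, a mesenchymal factor, was 1.16 ± 0.292 (edgeR adjusted p = 0.303, DESeq2 adjusted p = 0.0305) at levels under 4 CPM. Zeb1 was at 0.53 without NSD2fl/fl library 2 and had an unadjusted p above 0.05 without NSD2fl/fl library 3 or NSD2∆IE library 2 or 3, and Zeb2 had one above 0.05 when any of these 4 libraries was left out. Zeb1, Zeb2 and Twist1 are known from mesenchymal cells. Smooth muscle markers were higher in the same libraries, with the values given above, and their part in these differences was not tested.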

How the data were processed

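Per the labels, total RNA of colon was sequenced in 6 libraries, and each had 2 deposited files, of counts and of FPKM. The authors made the raw counts per gene, and the FPKM values were deposited by them as the same counts relative to gene length and library size. In 17863 genes with reads throughout, the gene length implied by the 2 files lay within 0.0638 bases of its rounded median in every library. The submitters' processing notes name fastp, HISAT2, HTSeq, R 3.2.0 and mm10, and the annotation and strand setting were not given in the sources used here. Gene positions are from GENCODE M21 (GRCm38).

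Counts were tested in R 4.3.3 with edgeR 4.0.16 (filterByExpr, TMM factors, glmQLFit and glmQLFTest, two-sided), with DESeq2 1.42.0 and limma 3.58.1 as alternatives. The common dispersion was 0.0967, a biological coefficient of variation of 0.311. CPM are TMM-scaled, and log2 CPM has a prior count of 2. A value of 0 allows up to 3 counts, 0.0789 CPM at most. Relative levels and ratios were compared by exact permutation of the libraries. Scripts were tested on simulated data. The labels do not state separate animals, so p-values measure the spread between these libraries, and chi-square comparison showed no library deposited more than once. Replicate numbers were not treated as pairs in the main fit, since the labels name no pairing. Correlations of deviations between libraries of the same number were 0.501, 0.643 and -0.166, so pairing is left undecided.

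Members and lists were chosen with earlier results of these data known. Named genes were all members, the genes of smallest p among other junction genes (at most 6) and regulators (at most 4) with p under 0.05, the most similar genes by r, and the first 3 genes of marker lists. Ctnnd1, Plekha7 as a junction gene, Klf4, Esrp2, Hoxb13, Hoxd13, Hoxd12, Hoxa13, Ap1m2 and Rab25 were named after their values were seen. Of the other marker lists, median log2 fold changes were 2.03 (adipocyte), 0.11 (endothelium), -0.03 (fibroblast), -0.04 (leukocyte), -0.13 (goblet cell), -0.20 (colonocyte) and -1.20 (distal colon position). Reads of multigene families may be split by the counting. 1 barrier gene and 1 regulator are not reported here.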

Additional observations from a re-analysis of the deposited data

How the results depend on the processing

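All 9 members kept a log2 fold change below 0 in each of the 17 alternatives (other scaling, DESeq2, limma-voom, no filter, FPKM with a pseudocount of 1 or 0.1, the replicate block, the principal component split, no sex chromosomes, each library left out), and no member reached an adjusted p under 0.05 (lowest 0.187, Tjp3 by DESeq2). Their median ran from -0.37 to -0.14. Tjp3 had an unadjusted p under 0.05 in 13 of 17. The number of members lower at p under 0.05 and a log2 fold over 0.322 (1) became 2 with DESeq2, limma-voom, the replicate block and the principal component split, and 0 on the log2(FPKM + 0.1) scale and at a fold over 1.5; leaving out libraries gave 0 (without NSD2fl/fl replicate 2 or NSD2∆IE replicate 3) to 3 (without NSD2fl/fl replicate 3 or NSD2∆IE replicate 1). For other junction genes the number lower (2) became 1 with upper-quartile factors, library totals and both FPKM scales, 5 without the filter and with the replicate block, 7 with the principal component split, 0 at a fold over 1.5 and 1 to 8 with libraries left out, and the number higher (6) stayed between 4 and 7. The replicate block, in which the libraries share only a number by the labels, gave Tjp3 -0.49 and Cdh1 -0.43. Over all genes, adjusted calls rose from 5 to 455 with DESeq2, and the cause of this rise was not tested. They fell to 0 without the sex chromosomes, since all 5 called genes are sex-linked and were left out with them.

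With libraries left out, relative differences changed sign for Tjp1 (-0.31 to 0.17), Cgn (-0.22 to 0.13), Ocln (-0.15 to 0.27), Marveld2 (-0.11 to 0.22), F11r (-0.16 to 0.13) and Epcam (-0.142 to 0.057), and the log2 ratios of Marveld2 to Ocln (-0.10 to 0.12) and of Cdh17 to Cdh1 (-0.19 to 0.36). With 3 libraries a group, differences as small as most of those here cannot be told from the spread between libraries.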
